A study of Mus musculus with 2 samples.

Results

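Krüppel-like factors (KLFs) are transcription factors that end in zinc fingers of the C2H2 type and bind GC-rich and CACCC-like DNA, the same kind of site that the related SP factors bind. They work as a network of activators and repressors that compete for these sites. Several are immediate-early genes, and several answer to hormones: Klf9 and Klf15 are known targets of the glucocorticoid receptor, and Klf9 also of the thyroid hormone receptor. Open chromatin was described here at 9 of them, Klf2, Klf3, Klf4, Klf5, Klf6, Klf9, Klf10, Klf13 and Klf15, picked by symbol from 21938 protein-coding genes of the mm10 annotation.

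The data were DNase-seq libraries, in which the nuclease DNase I cuts accessible DNA, made from adrenal gland tissue. The donors were B6CASTF1/J females at an age of 36 days. B6CASTF1/J is an F1 hybrid of C57BL/6J and the wild-derived CAST/EiJ, and the deposited lists do not tell the alleles of its parents apart. There was 1 group of 2 libraries, biological replicates 1 and 2, with no treatment and no second tissue, so that the values below are given per library without a test. The gland is a mixture of cortex, medulla, vessels and other cells, and in such a mixture an open site in few cells cannot be told apart from a weakly open site in many.

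Replicate 1 had 157595 peaks and 297594 footprints, and replicate 2 had 166206 peaks and 298189 footprints. A peak is a called stretch of open chromatin, its height is the authors' own signal value, and a footprint is a short stretch inside open chromatin that was protected from cutting. Promoter heights were 1.49-fold higher in replicate 2 than in replicate 1 at the median over 14797 genes (median log2 ratio 0.57), so heights were read within a library. The labelled tissue was checked on marker promoters. All 5 cortex markers (Nr5a1, Star, Cyp11a1, Cyp21a1, Cyp11b1) had a promoter peak in both libraries, with summed heights of 25.3 and 37.9. The 4 medulla markers given here (Th, Dbh, Chga, Phox2a) also had one in each library, with summed heights of 4.72 and 9.98. Endothelial markers were open at 3 of 4 genes in replicate 1 and 4 of 4 in replicate 2 (sums 5.25 and 7.45), stromal markers at 3 of 3 in both (10.9 and 16.3), and macrophage markers at 1 of 3 and 2 of 3 (1.65 and 2.76), with Csf1r at 0 in both. The part of each cell type in the KLF values was not tested.

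The genes lie on 9 chromosomes of mm10. In the GENCODE M21 annotation, Klf2 is a short gene at chr8:72319033-72321656 with 1 TSS, and Klf4 at chr4:55527143-55532466, Klf6 at chr13:5861482-5870394 and Klf9 at chr19:23141226-23168134 also have 1. Klf3 (chr5:64803388-64832901), Klf5 (chr14:99298691-99315036) and Klf10 (chr15:38291463-38300706) have 2 each. Klf13, the longest at 52.6 kb (chr7:63886351-63938915), has 3, and Klf15 (chr6:90462576-90475238) has 4. Klf4, Klf10 and Klf13 are on the minus strand and the others on the plus strand.

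Promoter sequences are shown for 5 of the genes as examples. Footprints found in both libraries fell on recognisable letters in them, and also in promoter peaks not shown, among them those of Klf3 and Klf13. The sequences run 5′ to 3′ on the gene's strand, start within the promoter peak and end before the first transcription start site (TSS). Capitals mark bases inside a footprint of both libraries. All were read from RefSeq's mm10 genome (GRCm38.p6): Klf6 at chr13:5861181-5861480 and Klf2 at chr8:72318821-72319032, both on the plus strand, Klf4 at chr4:55532467-55532680 and Klf10 at chr15:38300707-38300920, both on the minus strand, and Klf9 at chr19:23140896-23141195 on the plus strand. The sequences of Klf2, Klf4 and Klf10 end at the base before the TSS, and those of Klf6 and Klf9 farther upstream, since their TSSs lie at 5861482 and 23141226.
Klf6 promoter: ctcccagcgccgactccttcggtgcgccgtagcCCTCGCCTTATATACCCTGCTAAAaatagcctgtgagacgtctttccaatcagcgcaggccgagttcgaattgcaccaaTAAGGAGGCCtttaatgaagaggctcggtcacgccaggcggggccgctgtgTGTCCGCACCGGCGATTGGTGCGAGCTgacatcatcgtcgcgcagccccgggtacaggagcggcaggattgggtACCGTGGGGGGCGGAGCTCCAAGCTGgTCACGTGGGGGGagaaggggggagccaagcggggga
Klf2 promoter: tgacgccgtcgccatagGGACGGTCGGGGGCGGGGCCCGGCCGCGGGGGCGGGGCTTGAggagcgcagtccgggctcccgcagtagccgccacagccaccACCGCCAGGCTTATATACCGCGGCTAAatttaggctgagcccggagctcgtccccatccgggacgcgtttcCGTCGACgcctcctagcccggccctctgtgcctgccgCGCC
Klf4 promoter: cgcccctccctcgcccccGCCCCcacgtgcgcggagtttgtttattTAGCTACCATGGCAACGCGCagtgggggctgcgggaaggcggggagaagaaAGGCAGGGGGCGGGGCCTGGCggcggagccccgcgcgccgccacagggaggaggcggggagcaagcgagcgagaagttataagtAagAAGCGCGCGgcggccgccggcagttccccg
Klf10 promoter: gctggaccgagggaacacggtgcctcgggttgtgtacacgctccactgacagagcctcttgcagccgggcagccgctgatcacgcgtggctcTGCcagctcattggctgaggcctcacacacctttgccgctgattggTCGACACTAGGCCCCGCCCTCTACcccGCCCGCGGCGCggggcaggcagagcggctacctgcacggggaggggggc
Klf9 promoter: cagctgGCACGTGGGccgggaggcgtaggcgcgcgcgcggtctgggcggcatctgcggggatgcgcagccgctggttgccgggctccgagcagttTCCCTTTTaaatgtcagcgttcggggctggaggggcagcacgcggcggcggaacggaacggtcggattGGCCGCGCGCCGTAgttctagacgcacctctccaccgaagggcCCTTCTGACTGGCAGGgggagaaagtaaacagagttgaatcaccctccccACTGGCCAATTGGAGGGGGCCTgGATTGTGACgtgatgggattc

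In Klf2, the endothelial and lymphocyte quiescence factor, a footprint of 46 bases in replicate 1 and 44 bases in replicate 2 covered a pair of GC boxes (GGGCGG, the SP and KLF type of site) lying side by side. Footprints of at least 40 bases made up 0.680% of all footprints in replicate 1 and 1.06% in replicate 2, where the median footprint was 10 bases in each. In Klf4, a pluripotency and differentiation factor, the 12 letters GGGGGCGGGGCC of the Klf2 footprint recurred, again inside a footprint of both libraries. That run stood in 353 of 20125 RefSeq promoter windows (1.75%). In Klf10, the TGF-beta inducible early gene, a protected stretch centred at -66 bp in replicate 1 and -64 bp in replicate 2 held a GC box read on the other strand. Klf6, an injury-induced immediate-early gene, had a footprinted GC box and, in the next footprint, an E-box (CACGTG). In Klf9, the hormone-induced member, the footprinted letters were an E-box and CCAAT boxes and no GC box.

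Klf2 and Klf6 shared a further run of 10 letters, CTTATATACC, which lay inside a footprint of both libraries in each promoter. The replicate 1 footprints are shown with the shared run in capitals, at chr8:72318921-72318947 for Klf2 and chr13:5861214-5861238 for Klf6, both on the plus strand of GRCm38.p6.
Klf2 footprint: accgccaggCTTATATACCgcggctaa
Klf6 footprint: cctcgcCTTATATACCctgctaaaa
In each promoter a MEF2 element, an AT-rich site of the MEF2 factors, began at the 3′ end of this footprint, centred at -84 bp in Klf2 and -244 bp in Klf6. As background, MEF2 acting downstream of the kinase ERK5 is known to switch on Klf2 in endothelial cells. The Klf6 element was covered by the footprint over at least 50% of its letters in both libraries and the Klf2 element in neither. RefSeq promoter windows gave a background of 0.482% with a MEF2 element and 19 of 20125 (0.0944%) with the run. The Klf2 window holds both, but the Klf6 window, at chr13:5861239-5861538, starts after the run and inside the MEF2 element, so that these shares do not cover the Klf6 site. The run stood in 15 peaks of replicate 1 and 18 of replicate 2, of which 10 and 11 lay within 1 kb of a TSS. A footprint covered at least 50% of it in 9 of those 15 peaks and in 8 of the 18. Genes nearest to the peaks by a TSS included Eef1a1, Ddx3x and Tuba1c in both libraries. The run was chosen after the sequences had been seen, and the replicate 2 peak of Klf6 began downstream of it, so that only the footprint lists show it there.

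All 9 KLF genes had a peak within 1 kb of a TSS in both libraries, where 68.6% of all protein-coding genes had one in replicate 1 and 69.6% in replicate 2. The promoter height of a gene is that of its tallest such peak. Its median over the 9 genes was 14.1 in replicate 1 and 20.5 in replicate 2, against 2.97 and 4.46 over all protein-coding genes. The KLF promoters were thus several times as tall as the typical promoter of the same library (genes without a peak count as 0).

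Klf6 was the tallest, with heights of 20.9 and 30.1 in replicates 1 and 2 (mean 25.5 ± 6.53, SD, n = 2), at percentiles 98.3 and 98.1 of all genes. Klf10 followed with 18.8 and 24.7 (mean 21.7 ± 4.201, SD, n = 2). Both are immediate-early members. Klf2 had 16.5 and 22.9 (mean 19.7 ± 4.52). Klf13, a member of the Klf9 subgroup that can repress through the SIN3A corepressor, had 15.8 and 22.0 (mean 18.9 ± 4.40). These 4 genes stood at or above the 90th percentile of promoter heights in both libraries, a place that 8.81% of all genes held.

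Klf3, a repressor that recruits CtBP, came just below that limit, with 14.1 and 20.5 (mean 17.3 ± 4.55). Klf5, known from epithelia and smooth muscle, had 13.0 and 18.95 (mean 15.98 ± 4.196). The glucocorticoid-responsive pair did not lead the list: Klf9 had 11.1 and 16.9 (mean 14.0 ± 4.06), and Klf15, which acts in amino acid and glucose metabolism, was the lowest with 8.76 and 13.3 (mean 11.02 ± 3.20). Between them stood Klf4 with 10.5 and 15.1 (mean 12.8 ± 3.25). Klf15 was still above 72.2% and 72.3% of all genes.

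The order of all 9 genes was the same in both libraries. In each of the 8 neighbouring pairs of that order, the means differed by less than the smaller of the 2 SDs, which hold the general shift between the libraries. The log2 ratio of replicate 2 over replicate 1 ran from 0.40 in Klf10 to 0.60 in Klf9 and Klf15, with a median of 0.53. No KLF promoter lay more than 1 (log2) from the median of all genes, where 1.07% of the 14797 genes did.

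**Figure D1:**
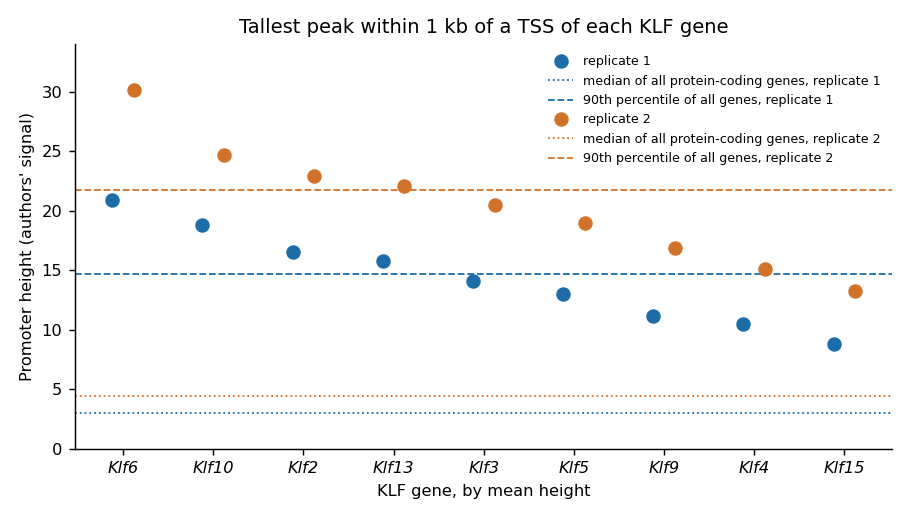
Height of the tallest peak within 1 kb of a TSS (the authors' signal, vertical axis) for the 9 KLF genes in order of their mean, in replicate 1 (blue) and replicate 2 (orange), with the median (dotted) and the 90th percentile (dashed) over all protein-coding genes of each library. All points lie above the medians of 2.97 and 4.46, and Klf6, Klf10, Klf2 and Klf13 lie above the 90th percentile of 14.7 in replicate 1 and 21.7 in replicate 2.

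Open chromatin was broad around most of these starts. Within 1 kb of the first TSS, the authors' per-position false discovery rate was at or below 0.05 over a median of 1478 bp in replicate 1 and 1790 bp in replicate 2 for the 9 genes, against 594 and 675 bp for all protein-coding genes. Klf13 was open over the whole 2000 bp in both libraries. Klf3 came next with 1868 and 1927 bp, and Klf4 had 1645 and 1801 bp. Klf2 had the narrowest span in both, 880 bp and 1276 bp, although its peak ranked 3 of 9 by height.

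Several of the genes had more than 1 open start, and some had further tall peaks near the first TSS. Klf3 had a second TSS about 9 kb into the gene, and the peak beside it, in an intron at 8.88 kb, measured 6.19 and 10.9. In Klf10 a peak at 1.38 kb from the first TSS, in an intron, measured 14.8 and 18.3 and was centred 249 bp upstream of the second Klf10 TSS. Another at -0.365 kb measured 12.7 and 20.6. Each of these and the tallest Klf10 peak exceeded the promoter heights of Klf4, Klf9 and Klf15 in the same library. Klf13 had intronic peaks beside further starts, of 7.04 and 12.04 at 13.8 kb and of 4.04 and 6.58 at 2.34 kb. Another intronic Klf13 peak, of 7.95 and 11.9 at 1.13 kb, was centred 1134 bp from the nearest TSS. In Klf15 the tallest promoter peak was not at the first TSS, where the peak measured 6.60 and 8.62, but in an intron at 1.06 kb. That tallest peak was centred 967 and 907 bp from the nearest TSS in replicates 1 and 2. A Klf15 peak beside another of its starts, at 3.705 kb, measured 4.07 and 5.81.

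The promoter peaks of the 9 genes held a median of 11 footprints in replicate 1 and 10 in replicate 2, against 5 in each over all genes with a promoter peak. Klf10 had 25 and 14, Klf13 had 23 and 20, Klf3 had 18 and 19, Klf9 had 14 and 14, and the others had 6 to 11 in each library. Only footprints wholly inside a library's own peaks were counted, so these numbers depend on where the peaks end. Over all open sites of the Klf10 domain merged over the libraries (promoter, distal and near another gene's TSS), a wider set, the numbers were 54 and 57. Footprints recur only in part between libraries: of 123 replicate 1 footprints in KLF promoter peaks, 87 overlapped one of replicate 2 (70.7%), against 66.8% for all peaks near a TSS.

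**Figure D2:**
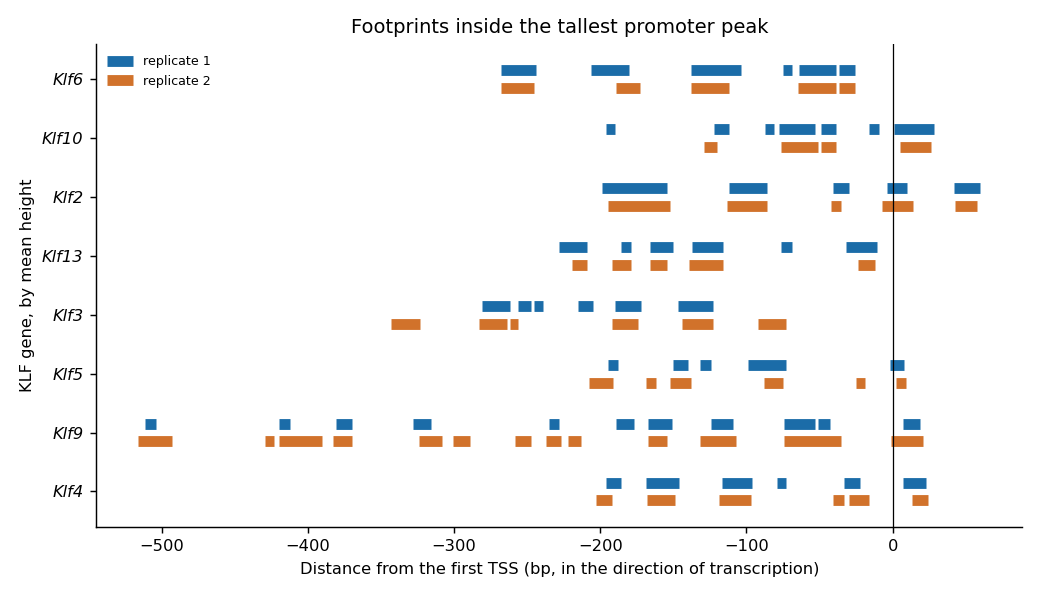
Footprints of each library inside the interval of the tallest promoter peak of replicate 1, for 8 KLF genes. They are placed by distance from the first TSS (bp, horizontal axis, negative upstream), in replicate 1 (blue) and replicate 2 (orange). The long footprint near -176 bp in Klf2 and the Klf6 footprint near -256 bp appear in both libraries. The latter lies outside the replicate 2 peak of Klf6, which began downstream of it. Klf15 is not drawn because its tallest peak lies in an intron.

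GC boxes were footprinted in both libraries in the promoter peaks of 7 of the 9 genes, all but Klf5 and Klf9. The counts of genes given here have no share over all genes beside them, and the shares given are per match. A KLF-type element (CCNCNCCC, which can overlap a GC box) was footprinted in the same 7 genes. However, 31.1% of its matches in replicate 1 and 45.6% in replicate 2 lay in a footprint, against 37.1% and 38.5% in all promoter peaks. The libraries thus fell on opposite sides of the background. Overlapping matches count separately here. The Klf3 site at 8.05 kb held 11 in a C-rich run, which a footprint of replicate 2 covered in part and no footprint of replicate 1 touched. For the GC box, 40.6% of the 64 GC boxes in KLF promoter peaks of replicate 1 lay in a footprint, against 38.8% of all GC boxes in promoter peaks, and in replicate 2 the shares were 42.6% and 40.5%. GC boxes of these promoters were thus in a footprint about as often as those of all promoters, and the KLF promoters held many of them. CCAAT boxes were footprinted in both libraries in Klf5, Klf6, Klf9, Klf10 and Klf13. Of their matches, 11 of 28 in replicate 1 (39.3%) and 8 of 25 in replicate 2 lay in a footprint, against 28.7% and 30.7% in all promoter peaks. E-boxes were footprinted in both in Klf6, Klf9, Klf10 and Klf15, with 5 of 7 matches in replicate 1 and 4 of 5 in replicate 2, against 36.9% and 37.9%. The only AP-1 element (TGANTCA, the FOS and JUN site) footprinted in both libraries in a KLF promoter peak was in Klf4, at -533 bp, where 19.2% and 17.2% of AP-1 elements in all promoter peaks lay in a footprint in replicates 1 and 2.

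RefSeq promoter windows, 250 bases before to 50 bases after a start, were given for 7 of the 9 genes and not for Klf5 and Klf10. A GC box stood in 6 of these 7 windows, all but Klf9, and in 47.7% of the 20125 windows. The KLF-type element stood in the same 6, and in 57.9% of all windows. The 7 windows held 23 to 47 CpG dinucleotides, against a median of 14, and their GC content was 63.0% to 76.7%, against a median of 57%. No TATA box (TATAAA) stood in any of the 7, where 12.1% of all windows had one.

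Over the whole domain of a gene, defined next, a median of 5.00% and 6.92% of positions had a false discovery rate at or below 0.05 for the 9 genes, against 2.91% and 3.05% for all genes. Around each gene, distal peaks were counted in its domain, which is the gene itself plus 50 kb on each side, ended early at the next protein-coding TSS. A distal peak has its centre more than 1 kb from any TSS. A peak whose edge reaches within 1 kb can thus count as a promoter peak too, as did 3 distal peaks in replicate 1 and 5 in replicate 2, among them the Klf13 peak of 7.95 and 11.9 at 1.13 kb. Sites merged over the libraries were called distal only where they reached within 1 kb of none of the gene's own TSSs and had their centre more than 1 kb from any other TSS. The domains of Klf2 and Klf15 were cut on 1 side, by Gm10282 and Cfap100. The median count over the 9 genes was 12 in each library, against 4 and 5 over all protein-coding genes, whose domains differ in length. Klf13 had most, 19 and 24 in a domain of 152.6 kb, and was the only one at or above the 90th percentile of counts in both libraries, where 8.74% of all genes stood. That count was 3 genes in replicate 2 alone and 3 with the shorter peak list, 0 with flanks of 10 kb and 6 with flanks of 200 kb. Klf10 had 14 and 13, Klf6 had 14 and 12, Klf15 had 12 and 16, Klf3 had 13 and 10, Klf4 had 10 and 12, and Klf2 had 8 and 11 in the shortest domain, 66.4 kb. The Klf9 count differed most between libraries, 9 and 20. Klf5 had fewest, 7 and 3, in 116.3 kb.

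**Figure D3:**
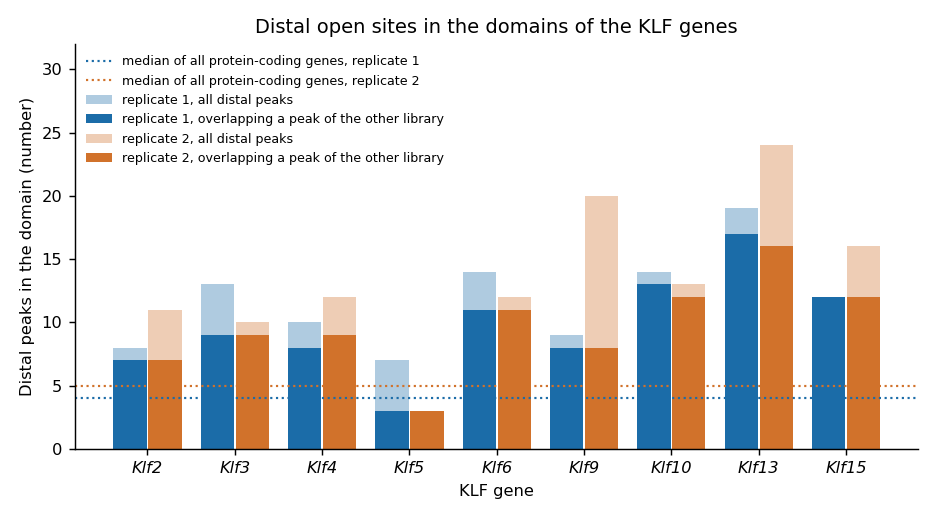
Number of distal peaks in the domain of each KLF gene (vertical axis) in replicate 1 (blue) and replicate 2 (orange), where the full colour is the part that overlaps a peak of the other library and dotted lines are the medians over all protein-coding genes, 4 and 5. Klf13 has the most peaks, Klf5 the fewest, and 12 of the 20 Klf9 peaks of replicate 2 have no partner in replicate 1.

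In all, the 9 domains held 106 distal peaks in replicate 1 and 121 in replicate 2. Of the first, 88 overlapped a peak of replicate 2 by at least 1 bp (83.0%, Wilson 95% interval 74.7% to 89.0%), against 77.8% of all distal peaks of replicate 1. Of the second, 87 overlapped a peak of replicate 1 (71.9%, 63.3% to 79.1%), against 74.1% of all. Their median height was 1.25 and 1.34 in replicates 1 and 2, against 0.794 and 0.856 over all distal peaks. Peaks without a partner were low: over all KLF domains the shared peaks had a median height of 1.54 and 1.75, and the unshared ones 0.528 and 0.635. At least 1 footprint was inside 89 and 97 of the peaks. The same share over all distal peaks was not taken, so these counts have no background. Merged over the libraries, 135 distal sites resulted, of which 84 were open in both, 76 lay between genes and 51 in introns.

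The tallest distal sites differed widely between the genes. Klf5 was the exception in the set: its promoter was above 85.8% and 85.1% of all genes in replicates 1 and 2. However, its tallest shared distal site by mean height, at -2.56 kb, measured only 0.514 and 0.803. In every other domain the tallest shared distal site measured at least 3.80 in replicate 1 and 5.35 in replicate 2.

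In Klf13 that site lay at 80.2 kb, beyond the 3′ end of the gene, and measured 7.01 and 12.4 (mean 9.70 ± 3.80, SD, n = 2), the tallest by mean height of the distal sites merged over the libraries. It stood above the median promoter height of all genes in either library, 2.97 and 4.46. A second tall site of Klf13 lay at -12.6 kb with 5.85 and 8.95. An intronic peak near the start of Gm27252, inside Klf13, was taller still with 8.19 and 12.8, but is not counted as distal.

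In Klf9, open sites clustered upstream. The tallest distal one, at -5.27 kb, measured 6.48 and 8.67 (mean 7.58 ± 1.54), and a neighbour at -7.60 kb measured 3.12 and 6.25. Between them, within 1 kb of the start of the long noncoding RNA 2410080I02Rik, further peaks measured 5.49 and 6.35, 7.47 and 11.5, and 3.83 and 5.46. As background, an enhancer a few kb upstream of Klf9 at which thyroid hormone and glucocorticoid receptors act together has been described in mouse and frog. The peak nearest to the RNA's start held a match to the glucocorticoid receptor element, of which a footprint of replicate 1 covered less than 50% and no footprint of replicate 2 any letter. Over 10 kb from any TSS, the tallest Klf9 site was intronic, at 21.4 kb, with 1.495 and 2.07.

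In Klf15 the tallest distal site lay at 52.6 kb, in an intron of Gm45901, with 5.48 and 10.3 (mean 7.88 ± 3.41), and the next at -12.2 kb, with 4.47 and 8.29. In Klf2 a site at -8.00 kb measured 5.98 and 7.70 (mean 6.84 ± 1.21) and one at 3.60 kb, past the end of the short gene, 4.77 and 6.91. Both held an AP-1 element. Farther away, at 47.0 kb in an intron of Eps15l1, a Klf2 domain site measured 3.46 and 4.47.

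In Klf10 the tallest distal site lay at 16.7 kb, downstream of the gene, with 4.89 and 7.95 (mean 6.42 ± 2.17), and the tallest over 10 kb from any TSS, at -23.4 kb, measured 1.08 and 1.30. In Klf4 the tallest distal site by mean height lay at 17.4 kb, also downstream, with 3.80 and 6.85 (mean 5.33 ± 2.15). A coding-exon site at 2.09 kb was taller in replicate 1, with 3.999 and 6.08. The tallest Klf4 site over 10 kb from any TSS, at 51.8 kb, measured 2.26 and 3.60. In Klf3 the tallest one by mean height was intronic, at 2.92 kb, with 4.10 and 5.84 (mean 4.97 ± 1.23). Another intronic site, at 10.3 kb, was taller in replicate 1, with 4.41 and 5.31. A farther one at 63.4 kb measured 2.95 and 5.15. In Klf6 the tallest distal site lay at -16.2 kb, with 4.51 and 5.35 (mean 4.93 ± 0.591). A Klf6 site just past the 3′ end, at 8.99 kb, measured 4.14 and 3.45.

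**Figure D4:**
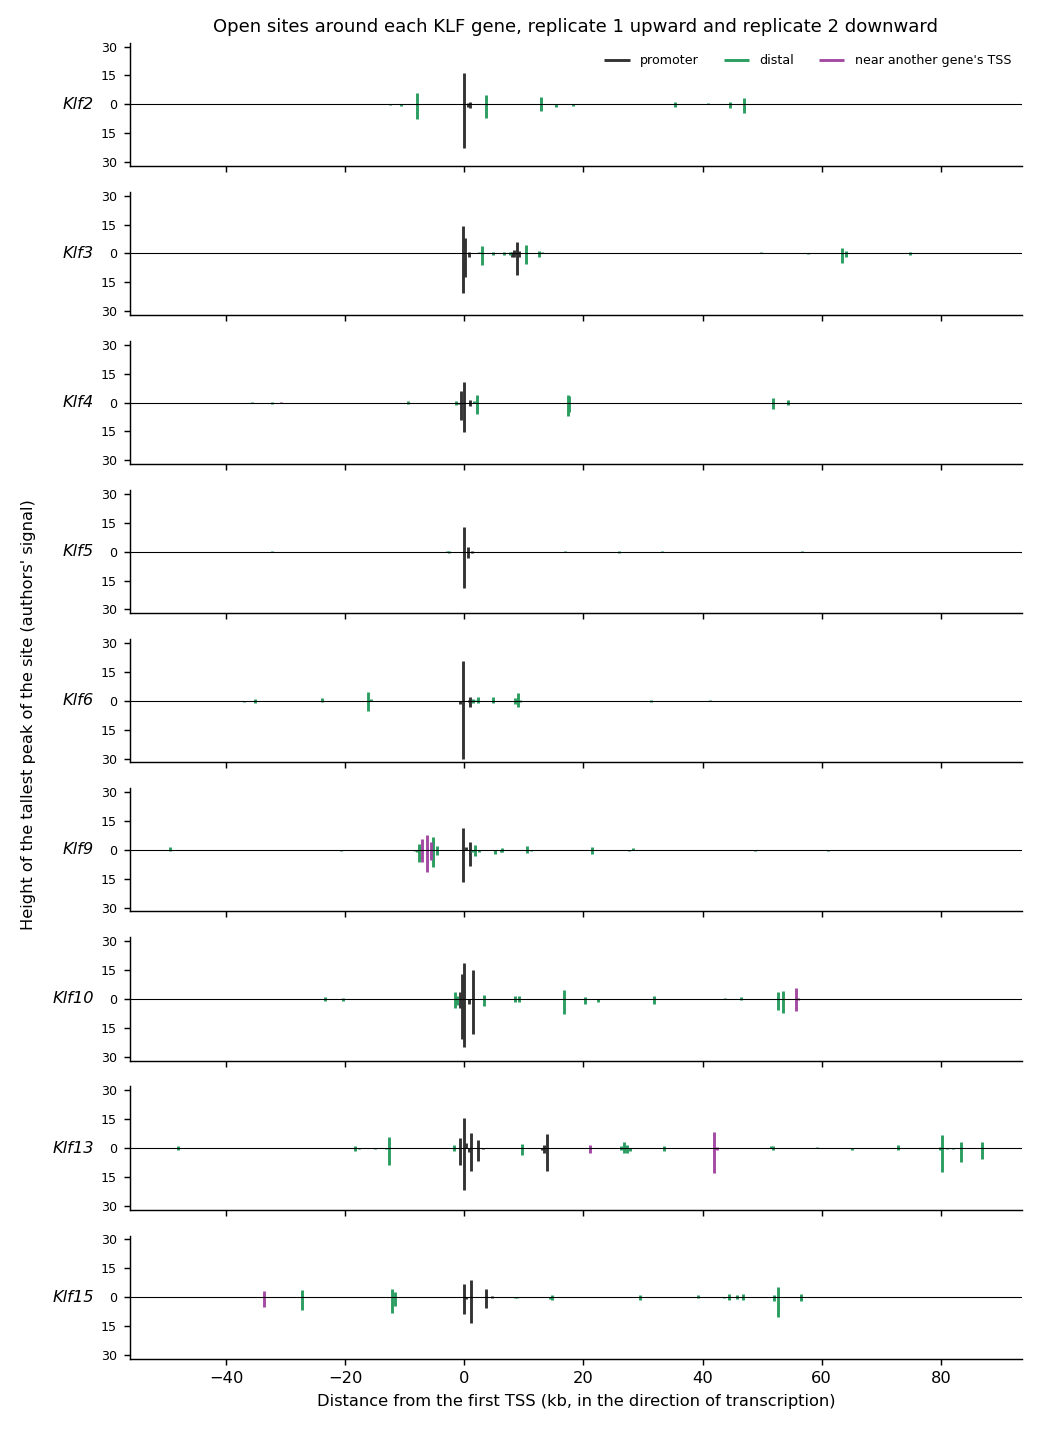
Open sites in the domain of each KLF gene by distance from its first TSS (kb, horizontal axis, in the direction of transcription), with the height of the tallest peak of the site in replicate 1 drawn upward and in replicate 2 downward (the authors' signal), coloured as promoter, distal or near another gene's TSS. Klf5 has a promoter of 13.0 and 18.95 with almost no distal signal, Klf9 has a cluster upstream, and the Klf13 site at 80.2 kb reaches 7.01 and 12.4.

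Distal sequences are shown for 5 sites whose named elements lay inside footprints of both libraries. They are given on the gene's strand from GRCm38.p6, and capitals again mark bases in a footprint of both libraries. They are the Klf13 site at 80.2 kb (chr7:63858581-63858760, minus strand), the Klf13 site at -12.6 kb (chr7:63951401-63951600, minus strand), the Klf2 site at 3.60 kb (chr8:72322541-72322720, plus strand), the Klf6 site at -16.2 kb (chr13:5845181-5845380, plus strand) and the Klf15 site at 46.7 kb (chr6:90509161-90509400, plus strand).
Klf13 far downstream site: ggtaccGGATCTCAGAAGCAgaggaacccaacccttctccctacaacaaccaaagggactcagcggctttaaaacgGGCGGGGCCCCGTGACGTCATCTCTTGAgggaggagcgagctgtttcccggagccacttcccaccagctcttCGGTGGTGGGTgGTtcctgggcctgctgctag
Klf13 upstream site: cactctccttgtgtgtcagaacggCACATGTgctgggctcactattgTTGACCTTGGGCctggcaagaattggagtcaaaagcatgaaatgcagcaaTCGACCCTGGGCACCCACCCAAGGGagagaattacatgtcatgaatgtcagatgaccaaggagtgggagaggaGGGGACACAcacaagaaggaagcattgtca
Klf2 downstream site: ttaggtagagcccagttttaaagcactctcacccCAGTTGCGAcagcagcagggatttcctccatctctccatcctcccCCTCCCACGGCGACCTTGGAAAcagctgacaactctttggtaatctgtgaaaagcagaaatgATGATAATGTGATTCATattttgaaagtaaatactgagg
Klf6 upstream site: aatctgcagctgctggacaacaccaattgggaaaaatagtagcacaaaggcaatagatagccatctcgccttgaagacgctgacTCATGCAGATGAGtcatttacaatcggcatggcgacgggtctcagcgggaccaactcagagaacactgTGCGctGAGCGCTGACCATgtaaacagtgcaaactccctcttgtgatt
Klf15 downstream site: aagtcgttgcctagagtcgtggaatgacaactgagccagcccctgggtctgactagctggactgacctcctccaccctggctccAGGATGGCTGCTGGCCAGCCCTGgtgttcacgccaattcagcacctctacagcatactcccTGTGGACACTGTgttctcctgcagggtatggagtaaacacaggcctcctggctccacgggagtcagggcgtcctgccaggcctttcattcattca

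The far Klf13 site held a complete cAMP response element (CRE, TGACGTCA) beside a GC box within a shared footprint. CREs are rare in distal peaks, standing in 0.419% of them in each library, and this was the only one among the KLF distal peaks. In all distal peaks, 57.4% of CREs in replicate 1 and 54.6% in replicate 2 lay in a footprint. The upstream Klf13 site held an SF-1 element (CAAGGTCA), shown on the other strand. SF-1, encoded by Nr5a1, is the nuclear receptor that sets up the steroid-making cells of the cortex. Of 6 SF-1 elements in KLF distal sites, 2 were footprinted in both libraries, this one and one in Klf10 at 9.10 kb. Within the peaks of each library, 3 of 5 lay in a footprint in replicate 1 and 3 of 5 in replicate 2, against 31.3% and 31.7% of SF-1 elements in all distal peaks. The Klf2 and Klf6 sites each had an AP-1 element in a shared footprint, and in Klf6 a pair of AP-1 elements stood side by side. Per match, 25.9% of AP-1 elements in KLF distal peaks of replicate 1 and 16.1% in replicate 2 lay in a footprint, against 22.6% and 18.6% in all distal peaks. The Klf15 site was low, 1.89 and 1.598 in replicates 1 and 2. It held the only glucocorticoid receptor element among the KLF distal peaks, and its first letters lay in a footprint of both libraries. Over all distal peaks 5.25% of such elements in replicate 1 and 6.42% in replicate 2 lay in a footprint. A match is a description of letters and does not show which factor was bound.

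Across all KLF distal peaks, AP-1 elements stood in 23 of 106 in replicate 1 (21.7%) and 26 of 121 in replicate 2 (21.5%), against 20.8% and 17.4% of all distal peaks. SF-1 elements stood in 4.72% and 4.13%, against 5.16% and 4.66%. Both were near the share of all distal peaks of the gland. GC-rich elements were more frequent: the KLF-type element stood in 29.2% and 27.3% of KLF distal peaks, against 17.3% and 18.5%, and the GC box in 13.2% and 12.4%, against 6.82% and 7.44%. The median GC content of these peaks was 53.2% and 53.1%, against 50.6% and 52.0% over all distal peaks. Their median width was 180 bp in each library, against 180 and 160 bp. The part of GC content and width in the difference was not tested. TATA boxes stood in 1 of 106 peaks in replicate 1 (0.943%) and 1 of 121 in replicate 2 (0.826%), against 5.01% and 4.11%.

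**Figure D5:**
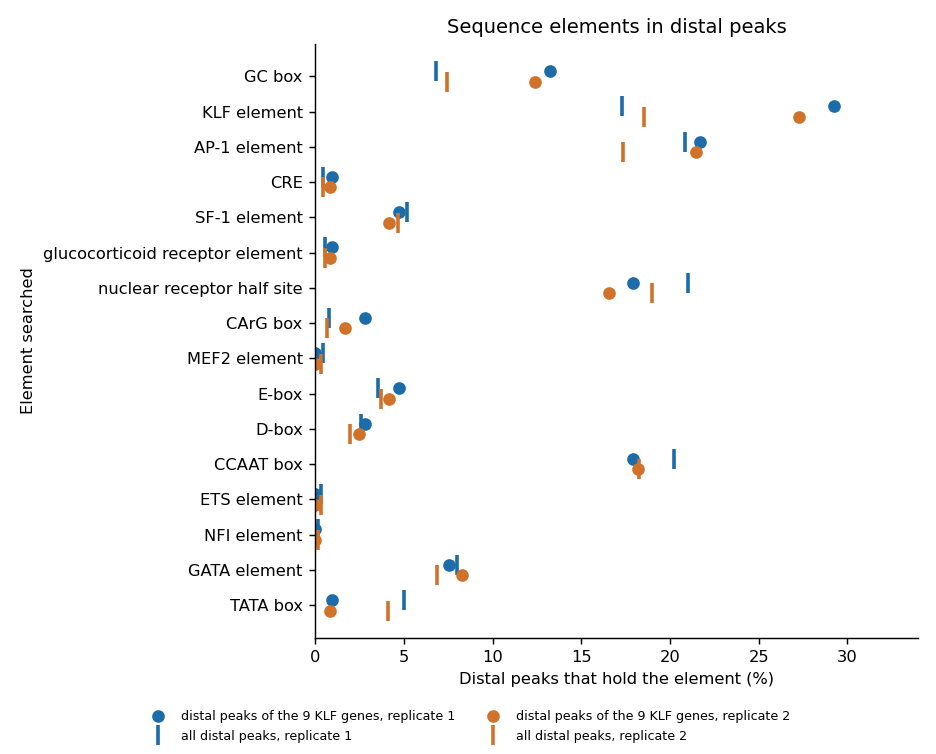
Share of distal peaks that hold each of the 16 elements searched (%, horizontal axis), for the distal peaks of the 9 KLF genes (points) and for all distal peaks (bars), in replicate 1 (blue) and replicate 2 (orange). The KLF-type element (29.2% and 27.3%) and the GC box (13.2% and 12.4%) lie to the right of their shares in all distal peaks, and the AP-1 and SF-1 elements lie near theirs.

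Among 17 further KLF and SP genes, 14 were open at the promoter in each library. Their median height was 3.63 and 5.85 in replicates 1 and 2, below the 14.1 and 20.5 of the 9 genes described. The tallest were Sp4, with 25.5 and 38.8, and Klf16, with 19.9 and 33.1, so that the 9 genes did not hold the tallest promoters of the wider family. The lowest with a peak were Klf8, with 0.495 and 0.900, and Sp6, with 0.682 and 1.30. Klf1, the erythroid founding member, Klf17 and Sp7, a bone factor, had none in either library.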

How the data were processed

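The 2 DNase-seq libraries of adrenal gland tissue were analysed, 1 group with biological replicates 1 and 2. The labels number the animals differently but give both the same donor record, so the spread between libraries is that of 2 samples of 1 stock. Per the labels and the notes deposited beside the files, every file is on mm10 and comes from that library's own filtered alignments, without pooling. The sources used here name no aligner, peak caller, footprint caller or threshold.

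The deposited peak heights are a signal that the authors scaled before deposit, in whole multiples of 0.00934 in replicate 1 and 0.00883 in replicate 2 (tolerance 0.01 steps). The longer of the deposited peak lists of each library was used. The deposited table of false discovery rates holds such a rate (a q-value) for each position. The deposited footprint lists carry a constant p-value of 0.01, which was not used. Read depth is unknown, so no counting error can be given for heights, and intervals on shares cover counting error only.

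Genes, TSSs and places came from GENCODE M21, sequences from RefSeq GRCm38.p6. The letters shown and searched are those of this reference genome and were not read from the F1 animals, whose parental alleles may differ from it. Heights are the tallest peak within 1 kb of any TSS, and sites are peaks of both libraries merged where they overlap by 1 bp. Elements were searched on both strands, overlapping matches counted, and an element counted as footprinted when a footprint covered at least 50% of it. Besides those spelled out above, the search took the nuclear receptor site (AGGTCA), the D-box (TTATGNAA), the ETS element (CCGGAAGT), the GATA element (AGATAA), the CCAAT box (CCAAT) and, by name, the CArG box and the MEF2, NFI and glucocorticoid receptor elements. No test was made, since there is 1 group. All 9 genes are named, with the tallest distal site of each found in both libraries and the tallest over 10 kb from any TSS, both by mean height. Of the family list, the 2 tallest, the 2 lowest with a peak and the genes without a promoter peak are named. Other sites named were chosen after their values were seen. One of the marker genes listed for the tissue check is not reported here. The members and lists were chosen with earlier results of these data known. Python 3.11.15, pandas 2.3.3, numpy 2.4.6, scipy 1.17.1 and pysam 0.24.0 were used, and the scripts were tested on simulated data. Alternatives were the shorter peak list, a promoter window of 500 bp, flanks of 10 and 200 kb, a stricter overlap, footprints that only touch a peak, a height limit, and each library left out.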

Additional observations from a re-analysis of the deposited data

How the results depend on the processing

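All 9 KLF genes kept a promoter peak, and the number at or above the 90th percentile of heights was 4, under each alternative run on them. With the shorter peak list, the median number of distal peaks per domain was 8 in place of 12, 3 genes in place of 1 were at or above the 90th percentile of distal counts, the median number of promoter footprints was 9 in place of 10.5 (mean of the libraries), and AP-1 elements stood in 22.8% in place of 21.6% of distal peaks. Flanks of 10 kb gave a median of 6 distal peaks, 0 genes at that rank and an AP-1 share of 22.2%. Flanks of 200 kb gave 24.5, 6 genes and 22.6%. Peaks above the median height alone gave a median of 8 distal peaks. A promoter window of 500 bp gave a median of 7.5 footprints and lowered the mean height of Klf15 to 7.61, since its tallest peak is then left out. Counting footprints that only touch a peak gave 11.5. With 1 library left out, the genes at that rank of distal counts ranged from 1 to 3, 3 being the count in replicate 2 alone, and the median promoter height ranged from 14.1 to 20.5. The distal count of a gene therefore depends on list and flank. The mean promoter heights of the other 8 genes were the same with the shorter list and the smaller window. No paired analysis was possible because there is 1 group. Read depth is unknown, so whether a peak of 1 library was below detection in the other was not tested.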
